A study of Rattus norvegicus with 44 samples.

Results

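The kidney cortex of male rats labelled homozygous (Homo) at Xdh was followed over the 6 days around weaning, from postnatal day (PND) 15 to PND21. Homo libraries of PND21 (n = 3) were set against Homo libraries of PND15 (n = 4), which makes 7 of the 44 libraries of the series. A gene entered when its level was at least 1 FPKM (reads scaled by the authors for gene length and library size) in 3 or more of these 7 libraries, and 14387 of the 32545 genes in the table did. The same interval in wild type (WT; PND21, n = 3; PND15, n = 4) and in heterozygous rats (Het; PND21, n = 4; PND15, n = 4) served for comparison. Every animal was male, each library came from 1 animal, and poly-A RNA was sequenced. The sources used here give neither the strain nor the kind of Xdh allele nor the litter of an animal. The animal numbers in the titles of the PND21 and PND15 Homo libraries form separate runs, so litter or handling and age cannot be told apart, and the title of PND21 replicate 1 has a prefix of its own and the same number as an animal of PND5 Het. Without this library, 603 genes in place of 1019 were called between the ages in Homo.

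Xanthine dehydrogenase turns hypoxanthine into xanthine and xanthine into urate, the last steps of purine breakdown in many tissues. In these weeks the proximal tubules of the rat cortex build up the transporters and the mitochondria that reabsorption needs. An injured tubule, by contrast, loses such transporters, puts out injury proteins and chemokines, and draws in macrophages and neutrophils. Reg3g encodes a secreted C-type lectin of epithelial defence, Fgg the gamma chain of fibrinogen, Gpnmb a lysosomal glycoprotein of foamy macrophages and stressed epithelium, and Egf the epidermal growth factor made by the distal nephron.

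The reads counted on genes were 13364867 to 16683287 in the 7 Homo libraries, against 12686228 to 23329418 over the series, and the depths of the Homo groups overlapped. Pearson r of log2 values, across genes, which are not independent replicates, was 0.967 to 0.983 within the Homo groups and 0.933 to 0.969 between them. Mitochondrial genes took 7.25% ± 0.27 of the reads at PND21 (SD, n = 3) and 6.19% ± 0.998 at PND15 (n = 4). This gap of 1.06 percentage points did not pass the test (two-sided exact permutation p = 0.114; the smallest p of 35 splits is 0.0571). WT libraries held 10.7% ± 0.54 at PND21 and 8.41% ± 0.83 at PND15. PND21 replicate 1 and PND15 replicate 4 lay at the ends of the range for injury genes. PND21 replicate 1 had the highest Havcr1 and the lowest Egf, and PND15 replicate 4 had the lowest Havcr1 and the highest Egf of the 7.

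Xdh itself (ENSRNOG00000007081, chromosome 6, 25149235 to 25211494, minus strand; the sources used here name no build for the table's coordinates) was read in every Homo library. It stood at 13.5, 16.6 and 18.02 FPKM in PND21 Homo and at 6.46, 4.95, 8.03 and 2.87 FPKM in PND15 Homo. The groups did not overlap, and the difference was 1.43 ± 0.27 on the log2(FPKM + 1) scale (SE; limma with Benjamini-Hochberg adjusted p = 0.0266; two-sided exact permutation p = 0.0571, the smallest that 35 splits allow). WT held 22.3, 24.9 and 25.4 FPKM at PND21 and 17.8, 14.1, 14.2 and 16.9 FPKM at PND15, all above the Homo libraries of the same age. Het held 17.9, 9.703, 12.2 and 13.002 FPKM at PND21, a range that overlaps the Homo one, and 8.95, 13.2, 11.2 and 10.4 FPKM at PND15. The change in Homo minus the change in WT was 0.84 ± 0.31 (adjusted p = 0.215). Without PND15 replicate 2 or any PND21 library the age difference in Homo lost its call, with adjusted p up to 0.093.

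Between PND15 and PND21 the Homo cortex gained transcripts of acute-phase and antimicrobial proteins, macrophages, neutrophils, complement and antigen presentation, and lost transcripts of podocytes, endothelium, mesangium and the branching duct. Of the 14387 genes, 1019 differed (7.08%): 517 were higher at PND21 (3.59%) and 502 lower (3.49%), called at a limma adjusted p under 0.05. The median difference over all genes was 0.02 log2. Differences of at least 1 log2 unit were 167 among the higher and 64 among the lower calls. The ends of the scale were held by Cyp4a8, 3.61 ± 0.41 log2, and the neurofilament gene Nefl, -2.36 ± 0.19 log2. The groups of libraries did not overlap for 3579 genes (24.9%). In WT, by the same rule, 13.2% of genes rose and 9.21% fell over these days, and the change in Homo differed from that in WT for 0.579% of genes (0.326% with the higher and 0.253% with the lower change in Homo). WT falls were 8 of 18 podocyte, 3 of 20 endothelial, 1 of 12 mesangial and 5 of 11 duct-tip genes. Scaling to TPM moved the median of all genes to -0.12 log2 and turned the split of 517 higher and 502 lower into 322 higher and 1329 lower. With 1 library left out, 171 (without PND21 replicate 2) to 866 genes (without PND15 replicate 4) were called, and 26 of 103 called genes that the naming rule took kept their call in all 7 such fits. Of the genes named below as risen or fallen, Slc14a1, Cxcl3, Csf3, Havcr1, C3 and Ugt2b35 lost their call by voom on reads (adjusted p = 0.103, 0.0568, 0.0564, 0.0562, 0.0526 and 0.0503). Reg3b, Akr1c1, Cxcr2 and Cd2 reached 1 FPKM in only 2 PND15 libraries, and Cd163 and Agt in only 1. Those genes passed the filter through their PND21 levels, which favours a call. Wnt11 and Col26a1 reached 1 FPKM in only 2 PND21 libraries and passed it through their PND15 levels.

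**Figure D1:**
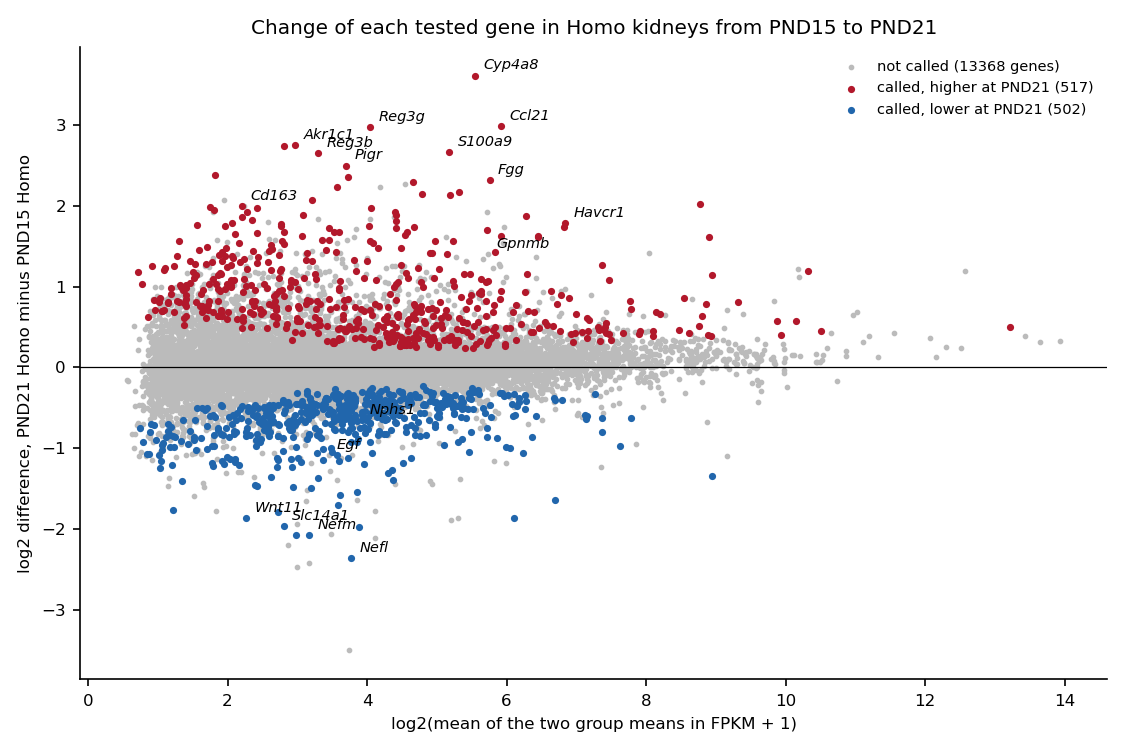
Change of the 14387 tested genes in Homo kidneys, as log2 difference of FPKM + 1 between PND21 and PND15 (y axis), against the mean level (x axis, log2 scale). Red points are the 517 genes called higher at PND21, blue the 502 called lower and grey the rest; Cyp4a8, Ccl21 and Reg3g stand highest among the calls and Nefl lowest.

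Several genes of acute-phase and Reg proteins rose. Of 17 genes of the list tested, 7 rose, none fell, and the median was 0.87 log2 beside 0.02 for all genes; WT had 2 higher and 1 lower call among 12 tested. Reg3g (chromosome 4, 109529679 to 109532234, minus strand) stood at 32.5, 31.4 and 20.4 FPKM in PND21 Homo, against 5.01, 1.93, 3.52 and 1.21 FPKM in PND15 Homo. All PND21 libraries lay far above the highest PND15 library, which was replicate 1. Its difference was 2.97 ± 0.35 log2 (adjusted p = 0.00705), and it was listed at 0 in all 3 PND21 WT libraries. Its neighbour Reg3b (109467272 to 109470510, plus strand), another Reg lectin, had 13.03, 19.4 and 14.2 FPKM at PND21 and 5.32, 2.27, 0.916 and 0.149 FPKM at PND15 (2.65 ± 0.53 log2, adjusted p = 0.0301). Reads shared within the Reg3 family cannot be parted here, though Reg3a reached at most 0.0718 FPKM in any Homo library.

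Fgg (chromosome 2, 181987217 to 181994514, plus strand) stood at 78.9, 91.9 and 91.8 FPKM at PND21 and 33.4, 17.8, 13.02 and 9.72 FPKM at PND15, without overlap (2.32 ± 0.36 log2, adjusted p = 0.0156). PND21 libraries were close to one another, while PND15 libraries spread, with replicate 1 highest. The genes of the other fibrinogen chains had differences of 1.34 ± 0.34 log2 for Fgb (adjusted p = 0.0592) and 1.11 ± 0.41 log2 for Fga (adjusted p = 0.149), and neither was called. Lbp, which binds bacterial lipopolysaccharide, rose by 1.42 ± 0.21 log2 (adjusted p = 0.014). Apcs, the serum amyloid P pentraxin, rose by 2.14 ± 0.46 log2 (adjusted p = 0.0361), and it rose in WT too, to 20.2 ± 6.31 FPKM at PND21 against 4.75 ± 1.61 FPKM at PND15 (SD, n = 3 and n = 4). Cp, the copper oxidase ceruloplasmin, rose by 1.27 ± 0.26 log2 (adjusted p = 0.0331). Socs3, the feedback inhibitor of cytokine receptors that signal through STAT3, held 108, 153 and 114 FPKM at PND21 and 117, 59.9, 88.5 and 33.3 FPKM at PND15; the groups overlapped and it was not called (adjusted p = 0.223). Reg3g was called with each library left out. Fgg was not called without PND15 replicate 2, PND21 replicate 2 or PND21 replicate 3 (adjusted p up to 0.0661), Lbp without PND21 replicate 3 (0.0502), and Cp without PND15 replicate 2 or any PND21 library (up to 0.0931). Reg3b and Apcs were lost without PND15 replicates 2 or 3 or any PND21 library (up to 0.121).

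Hepatic acute-phase genes are classically driven by interleukin 6 through STAT3. To show the letters behind these genes, the RefSeq promoters (GRCr8, 250 bases before to 50 after the start) of 6 called members were searched on both strands. The motifs were TTCNNNGAA, the palindrome bound by STAT dimers, and CTGGGAA, the core of the fibrinogen type of interleukin 6 element. Of the 6 promoters 4 are printed, and those not printed held neither motif. Matches are in capitals, and all sequences run 5′ to 3′ on the gene's strand.
Reg3g, chromosome 4, 112484689 to 112484988, minus strand: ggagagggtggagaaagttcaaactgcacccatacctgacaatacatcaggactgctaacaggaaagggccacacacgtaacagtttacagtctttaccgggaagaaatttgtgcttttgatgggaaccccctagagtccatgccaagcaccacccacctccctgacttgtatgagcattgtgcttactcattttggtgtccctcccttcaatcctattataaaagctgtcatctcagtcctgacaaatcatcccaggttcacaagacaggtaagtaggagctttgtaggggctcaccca
Reg3b, chromosome 4, 112419526 to 112419825, plus strand: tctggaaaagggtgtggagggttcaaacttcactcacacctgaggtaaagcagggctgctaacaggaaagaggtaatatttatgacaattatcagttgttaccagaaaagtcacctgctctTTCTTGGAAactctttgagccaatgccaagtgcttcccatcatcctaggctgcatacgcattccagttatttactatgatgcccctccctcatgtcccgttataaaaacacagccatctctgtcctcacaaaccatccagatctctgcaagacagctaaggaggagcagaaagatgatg
Fgg, chromosome 2, 170652833 to 170653132, plus strand: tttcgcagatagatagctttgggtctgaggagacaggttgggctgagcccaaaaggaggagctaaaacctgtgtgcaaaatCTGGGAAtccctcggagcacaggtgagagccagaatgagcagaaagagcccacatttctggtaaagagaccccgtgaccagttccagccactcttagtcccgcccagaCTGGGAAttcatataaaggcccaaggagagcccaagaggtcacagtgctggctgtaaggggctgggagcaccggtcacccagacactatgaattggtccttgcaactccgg
Apcs, chromosome 13, 87906459 to 87906758, minus strand: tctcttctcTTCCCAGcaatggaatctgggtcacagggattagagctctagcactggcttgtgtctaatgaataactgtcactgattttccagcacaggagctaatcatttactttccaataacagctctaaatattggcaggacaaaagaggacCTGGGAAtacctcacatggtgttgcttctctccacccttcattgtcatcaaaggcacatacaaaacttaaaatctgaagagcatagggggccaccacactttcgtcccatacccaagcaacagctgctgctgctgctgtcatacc

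Reg3b held 1 match to TTCNNNGAA, TTCTTGGAA, that begins 129 bases before the start. Fgg held CTGGGAA at 169 and at 61 bases before the start. Apcs held CTGGGAA at 95 and its reverse complement TTCCCAG at 241 bases before the start, and Reg3g held neither motif in this window. Among 33469 promoters of this length, 8.87% held TTCNNNGAA and 11.27% held CTGGGAA. Of the 7 called genes of the list, 6 had a promoter in the table; 1 held TTCNNNGAA and 2 held CTGGGAA. A match is a description of the letters, and binding was not measured.

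Tubule injury genes were high in Homo kidneys at both ages, and some of them rose at PND21. Of 31 tested, 5 rose and none fell (median 0.31 log2), while in WT 1 of 30 rose and 11 fell. Havcr1, which encodes the shed tubule protein KIM-1, had 255, 128 and 141 FPKM at PND21 and 95.1, 37.3, 48.98 and 29.2 FPKM at PND15 (1.79 ± 0.41 log2, adjusted p = 0.0445). Every PND21 library exceeded every PND15 library, and WT means were 1.06 FPKM at PND21 and 1.21 FPKM at PND15. Lgals3, the beta-galactoside lectin galectin-3, had 176, 118 and 108 FPKM at PND21 and 83.2, 72.7, 76.5 and 71.1 FPKM at PND15 (0.78 ± 0.16 log2, adjusted p = 0.0334). Plaur, the urokinase receptor, rose by 1.19 ± 0.26 log2 (adjusted p = 0.0377), Anxa1, a phospholipid-binding regulator of inflammation, by 0.68 ± 0.15 log2 (adjusted p = 0.038), and Il34, a ligand of the macrophage growth factor receptor, by 0.997 ± 0.24 log2 (adjusted p = 0.0494). Havcr1 and Plaur were called only without PND15 replicate 1, and Lgals3 only without PND21 replicates 1 or 3 (adjusted p in the other fits up to 0.119). Anxa1 and Il34 were lost without PND15 replicates 2 or 3 or any PND21 library (up to 0.129). For Il34 the Homo change was not the larger one. By voom on reads it differed from the WT and Het changes by -0.40 and -0.52 log2, neither called (adjusted p = 0.584 and 0.511).

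Other injury genes were far above WT at PND21 but were not called between the ages in Homo. Lcn2, the iron-siderophore binder lipocalin 2, had 494, 334 and 292 FPKM at PND21 and 197, 141, 218 and 56.4 FPKM at PND15 (adjusted p = 0.107); the groups did not overlap, and WT averaged 8.06 FPKM at PND21. Spp1, the phosphoprotein osteopontin, held 9567, 7558 and 7726 FPKM at PND21 and 5863, 3408, 3849.9 and 2226 FPKM at PND15 (adjusted p = 0.0585). Clu, a secreted chaperone, held 1349, 1425 and 1811 FPKM at PND21 and 1668, 497, 690.0 and 415 FPKM at PND15, where replicate 1 fell within the PND21 range (adjusted p = 0.17). Gpnmb stood at 104, 64.7 and 55.4 FPKM at PND21 and 33.3, 30.99, 41.7 and 11.5 FPKM at PND15. Its groups did not overlap, but with 1.399 ± 0.42 log2 it was not called (adjusted p = 0.0918), and it was called in 2 of 9 other settings. Egf stood at 2.02, 9.16 and 7.65 FPKM at PND21 and 7.402, 13.8, 11.4 and 21.6 FPKM at PND15. These ranges overlapped (-1.09 ± 0.48 log2, adjusted p = 0.207), whereas WT held 77.9, 73.2 and 73.9 FPKM at PND21 and 52.3, 49.9, 27.6 and 25.8 FPKM at PND15, a rise of 1.001 ± 0.28 log2 (adjusted p = 0.0445). The difference between the Homo and the WT change of Egf was -2.09 ± 0.60 log2 and was not called (adjusted p = 0.128).

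**Figure D2:**
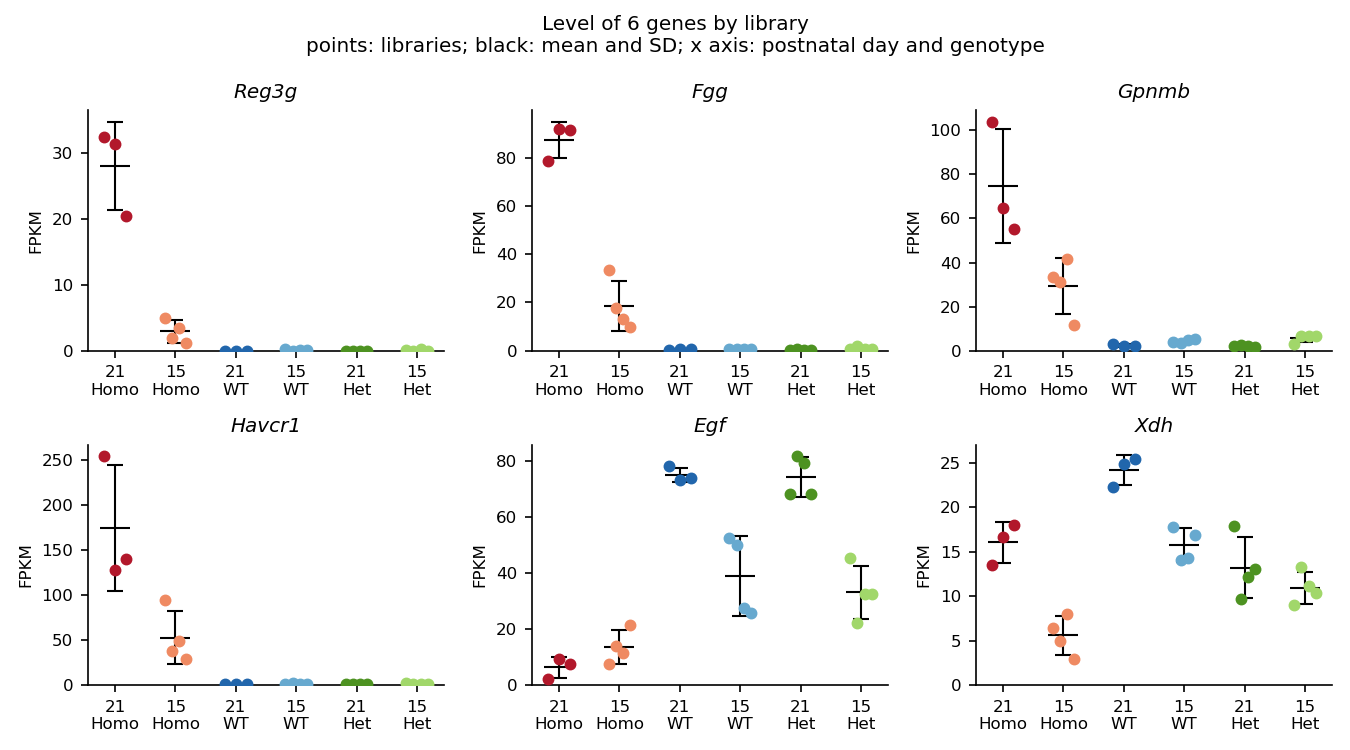
FPKM of Reg3g, Fgg, Gpnmb, Havcr1, Egf and Xdh in each library (points) with mean and SD (black), by postnatal day and genotype. In the Homo libraries Reg3g is 20.4 to 32.5 FPKM at PND21 and at most 5.01 FPKM at PND15, and Egf stays under every WT and Het library of either age.

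A share of macrophage and dendritic cell genes rose. Of 27 tested, 9 rose and none fell, the median was 1.15 log2, and the Homo groups did not overlap for 25, beside 24.9% of all genes. In WT, 9 of 19 rose, with a median of 0.31 log2. Cd163, the haemoglobin scavenger receptor of resident-type macrophages, had 9.499, 4.98 and 4.802 FPKM at PND21 and 0.601, 1.01, 0.923 and 0.658 FPKM at PND15 (1.996 ± 0.22 log2, adjusted p = 0.00622). All PND21 libraries were above all PND15 libraries, replicate 1 most of all, and WT averaged 0.548 FPKM at PND21. Cd163 reached 1 FPKM in only 1 PND15 library, so it passed the filter through its PND21 levels, which favours a call. Lyz2, the lysozyme of phagocytes, had 856, 641 and 569 FPKM at PND21 and 247, 181, 225 and 75.4 FPKM at PND15 (2.02 ± 0.40 log2, adjusted p = 0.029). C1qc, a chain of complement C1q that macrophages make, had 156, 117 and 114 FPKM at PND21 and 49.8, 45.7, 58.5 and 20.5 FPKM at PND15 (adjusted p = 0.0337). The lectins Clec7a, which recognises fungal glucan, and Clec10a rose by 1.89 ± 0.33 log2 (adjusted p = 0.0212) and 1.74 ± 0.34 log2 (adjusted p = 0.0278), and the mannose receptor Mrc1 by 1.26 ± 0.27 log2 (adjusted p = 0.0349). Lilrb4, an inhibitory receptor of myeloid cells, was among the 10 largest rises, with 30.1, 17.03 and 15.9 FPKM at PND21 and 3.47, 4.05, 5.23 and 1.101 FPKM at PND15 (adjusted p = 0.018). In bulk tissue, more cells of a type and more RNA per cell cannot be told apart.

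The lipid and lysosome list had 7 rises and no fall among 27 tested (median 0.46 log2), against 6 rises and 2 falls among 24 in WT. None of the 27 differed in its change between Homo and WT by limma or voom (12 with an unadjusted p under 0.05). Lpl, which frees fatty acids from lipoproteins, had 37.6, 27.9 and 29.7 FPKM at PND21 and 11.2, 12.5, 15.4 and 15.1 FPKM at PND15 (1.17 ± 0.14 log2, adjusted p = 0.00705). The cysteine protease genes Lgmn and Ctss rose by 1.15 ± 0.18 log2 (adjusted p = 0.0157) and 1.700 ± 0.32 log2 (adjusted p = 0.0258), and the macrophage elastase gene Mmp12 by 1.78 ± 0.38 log2 (adjusted p = 0.0373). Msr1, a scavenger receptor for modified lipoproteins, rose by 0.91 ± 0.16 log2 (adjusted p = 0.0192), and Acp5, a lysosomal phosphatase, by 0.46 ± 0.08 log2 (adjusted p = 0.0187). Cd68, the usual lysosomal marker of macrophages, held 35.9, 26.3 and 20.2 FPKM at PND21 and 12.8, 11.8, 16.1 and 5.03 FPKM at PND15 without overlap but was not called (adjusted p = 0.079). Of the macrophage and lysosome genes named, Cd163 and Lpl were called with each library left out; the others lost their call without PND15 replicate 2 and without PND21 replicate 2, with adjusted p up to 0.112. All of those others except Lgmn were also lost without PND21 replicate 3, all except Lgmn, Lilrb4 and Acp5 without PND21 replicate 1, C1qc, Mrc1 and Mmp12 without PND15 replicate 1, and Mmp12 without PND15 replicate 3.

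The neutrophil genes that reached a testable level rose. Only 5 of the list's 16 genes in the table reached the level to be tested, and all 5 rose, which the choice of a level in 3 libraries favours, since WT and PND15 levels were low. S100a9 and S100a8, the calprotectin subunits, had 68.6, 64.2 and 50.5 FPKM and 40.1, 42.8 and 38.3 FPKM at PND21. At PND15 they had 7.73, 11.7, 13.7 and 4.53 FPKM and 10.8, 9.78, 7.399 and 3.72 FPKM. Their groups did not overlap, with differences of 2.66 ± 0.32 log2 (adjusted p = 0.00705) and 2.29 ± 0.29 log2 (adjusted p = 0.00895). Cxcr2, the receptor of neutrophil chemokines, had 6.102, 4.83 and 4.07 FPKM at PND21 and 0.4198, 1.34, 1.25 and 0.3098 FPKM at PND15 (adjusted p = 0.0123). The decoy receptor gene Il1r2 rose by 1.52 ± 0.29 log2 (adjusted p = 0.0258) and the colony-stimulating factor receptor gene Csf3r by 1.44 ± 0.32 log2 (adjusted p = 0.0394). Summed over the 16 genes, levels were 111 to 141 FPKM at PND21 and 12.2 to 32.4 FPKM at PND15 in Homo, and 6.27 to 8.04 FPKM at PND21 in WT. S100a9 and S100a8 were called with each library left out, Cxcr2 was lost without PND21 replicate 2 (adjusted p = 0.0563), and Il1r2 and Csf3r without PND15 replicate 2 or any PND21 library (up to 0.108), Csf3r also without PND15 replicates 1 or 3.

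Cytokine and chemokine genes gave 8 rises and no fall among 32 tested (median 0.86 log2), against 3 rises and 1 fall among 20 in WT. Ccl21, which guides lymphocytes and dendritic cells that carry CCR7, had 106, 131 and 82.6 FPKM at PND21 and 16.3, 18.2, 10.95 and 6.91 FPKM at PND15 (2.99 ± 0.31 log2, adjusted p = 0.00549). WT averaged 12.4 ± 3.44 FPKM at PND21 and 7.52 ± 2.52 FPKM at PND15, near the PND15 Homo level; near-identical copies of this gene exist in rodents, so the reads may come from more than 1 locus. Il6, the main inducer of the acute phase, had 1.31, 1.35 and 1.22 FPKM at PND21 and 0.265, 0, 0.137 and 0.112 FPKM at PND15, and it was listed at 0 in all 7 WT libraries of these ages. Its difference was 1.03 ± 0.16 log2 (adjusted p = 0.0141), which understates a ratio at such low levels. Il6, Csf3 and Cxcl3 were under 1 FPKM in every PND15 library and could be tested only through their PND21 levels, which favours a call. The neutrophil chemokine genes Cxcl1 and Cxcl3 rose by 1.73 ± 0.32 log2 (adjusted p = 0.0246) and 1.28 ± 0.26 log2 (adjusted p = 0.0316), and Csf3, the granulocyte growth factor, by 1.25 ± 0.23 log2 (adjusted p = 0.0229). Il24, of the interleukin 10 family, had 30.4, 25.4 and 38.95 FPKM at PND21 and 16.5, 8.87, 13.9 and 5.84 FPKM at PND15 (adjusted p = 0.0381). Its relative Il19 had 56.7, 45.2 and 47.96 FPKM at PND21 and 31.3, 13.2, 22.5 and 6.08 FPKM at PND15 and was not called (adjusted p = 0.0831), nor were Il1b (adjusted p = 0.0637) and the monocyte chemokine Ccl2 (adjusted p = 0.0659). Ccl21 was called with each library left out and Il6 in the 4 such fits that tested it; Csf3 was lost without PND15 replicate 2 (0.0676), Cxcl3 without PND15 replicates 1, 2 or 3 (up to 0.0672), and Cxcl1 and Il24 without PND15 replicate 2 or any PND21 library (up to 0.115), Il24 also without PND15 replicate 3.

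Few lymphocyte genes passed the test. In the T and NK cell list all 16 differences were above 0, with a median of 0.60 log2 and an unadjusted p under 0.05 for 10. Of the 16, 2 rose, the adhesion receptor gene Cd2 (0.79 ± 0.16 log2, adjusted p = 0.0303) and the costimulator gene Icos (1.02 ± 0.22 log2, adjusted p = 0.0347). Cd3e, part of the T cell receptor complex, held 4.66, 3.39 and 3.199 FPKM at PND21 and 1.75, 1.04, 2.67 and 0.779 FPKM at PND15 and was not called (adjusted p = 0.0716). Of 6 tested B and plasma cell genes, the ectoenzyme gene Cd38 rose and the coactivator gene Pou2af1 fell. Ms4a1, which encodes the B cell antigen CD20, stayed at or below 0.623 FPKM in every Homo library. Pigr, the epithelial receptor that carries IgA into the lumen, had 37.1, 15.02 and 12.3 FPKM at PND21 and 2.701, 2.81, 2.75 and 2.06 FPKM at PND15 (2.496 ± 0.33 log2, adjusted p = 0.0105). PND21 replicate 1 was the highest of all, and WT rose as well, to 6.99 ± 1.595 FPKM at PND21 against 1.67 ± 0.294 FPKM at PND15 (n = 3 and n = 4). Pigr kept its call with each library left out; Cd2, Icos, Cd38 and Pou2af1 lost theirs without PND15 replicate 2 or any PND21 library, with adjusted p up to 0.103. Icos, Cd38 and Pou2af1 were also lost without PND15 replicate 1, Cd2 without PND15 replicates 3 or 4 and Pou2af1 without PND15 replicate 4.

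Complement genes had 8 rises and no fall among 27 tested (median 0.77 log2), against 5 rises and 2 falls among 22 in WT. C4b, of the classical pathway and nearly identical to C4a, had 61.1, 64.1 and 64.1 FPKM at PND21 and 20.3, 14.7, 17.6 and 5.68 FPKM at PND15 (2.16 ± 0.37 log2, adjusted p = 0.0195). C3, on which all pathways converge, had 42.5, 31.2 and 21.9 FPKM at PND21 and 9.63, 9.37, 13.4 and 3.15 FPKM at PND15 (adjusted p = 0.0457). The protease gene C2 and the terminal component gene C6 rose by 1.07 ± 0.18 log2 (adjusted p = 0.0185) and 1.67 ± 0.28 log2 (adjusted p = 0.0193), and Cfi, which cleaves C3b and C4b, by 1.56 ± 0.37 log2 (adjusted p = 0.0489). Each of these was lost without PND21 replicate 2 (adjusted p up to 0.135), all except C2 without PND15 replicate 2 or PND21 replicate 1, all except C6 without PND21 replicate 3, C3 and Cfi without PND15 replicate 3, and C3 without PND15 replicate 1. Antigen presentation had 9 rises and no fall among 18 (median 0.82 log2), and in WT 7 of 17 rose. Ciita, the switch for class II genes, had 5.52, 4.59 and 4.27 FPKM at PND21 and 1.76, 1.56, 2.17 and 1.503 FPKM at PND15 (1.08 ± 0.13 log2, adjusted p = 0.00705), and was called with each library left out. The class II genes Cd74 and RT1-Da rose by 1.61 ± 0.34 log2 (adjusted p = 0.0347) and 1.74 ± 0.31 log2 (adjusted p = 0.0212); in WT, too, both rose, and the difference of the 2 changes was 0.30 ± 0.38 log2 for Cd74 (adjusted p = 0.751). B2m, the class I light chain, rose by 0.86 ± 0.14 log2 (adjusted p = 0.0157). These 3 calls were lost without PND15 replicate 2 or PND21 replicates 2 or 3 (up to 0.103), Cd74 and RT1-Da also without PND21 replicate 1 and Cd74 without PND15 replicate 1. Interferon response genes had 5 rises among 26, the largest that of the antiviral GTPase gene Mx1 (0.90 ± 0.20 log2, adjusted p = 0.0365; lost in each of the 4 fits without 1 library that tested it, up to 0.0791; under 1 FPKM in every PND15 library, so tested through its PND21 levels alone), against 7 rises and 2 falls among 24 in WT.

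Podocyte genes fell as a group. Of 18 tested, 10 fell and none rose, with a median of -0.52 log2, while in WT 8 fell and 1 rose. Nphs1, the slit-diaphragm protein nephrin, had 8.77, 11.5 and 12.1 FPKM at PND21 and 15.9, 16.6, 19.996 and 17.6 FPKM at PND15 (-0.66 ± 0.12 log2, adjusted p = 0.0239). No PND21 library reached the lowest PND15 library, and WT averaged 18.6 ± 3.34 FPKM at PND21 and 20.6 ± 3.498 FPKM at PND15. Podxl, the sialomucin of foot processes, had 26.5, 36.1 and 35.8 FPKM at PND21 and 42.02, 49.4, 55.8 and 56.8 FPKM at PND15 (adjusted p = 0.0421). The transcription factor genes Foxc2, Tcf21 and Wt1 fell, at -0.85 ± 0.10, -0.97 ± 0.16 and -0.58 ± 0.11 on the log2 scale (adjusted p = 0.00705, 0.018 and 0.0258). Cdkn1c, a cyclin-dependent kinase inhibitor of mature podocytes, had 37.7, 51.1 and 60.03 FPKM at PND21 and 150.3, 179, 119 and 175 FPKM at PND15 (-1.64 ± 0.19 log2, adjusted p = 0.00705), and it fell in WT to 86.03 ± 29.5 FPKM at PND21 against 219.8 ± 31.9 FPKM at PND15. None of the 18 genes had a Homo change that differed from the WT change by limma or by voom on reads, and 6 had an unadjusted p under 0.05. Foxc2 and Cdkn1c were called with each library left out; Nphs1, Podxl, Tcf21 and Wt1 were lost without PND15 replicate 2 or PND21 replicates 2 or 3 (up to 0.0997). Nphs1 and Podxl were also lost without PND15 replicate 3, Wt1 and Podxl without PND21 replicate 1, and Podxl without PND15 replicate 4.

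Vascular genes fell alongside. In the endothelium list 8 of 21 fell and none rose (median -0.29 log2), against 3 falls and 2 rises among 20 in WT. Aplnr, the apelin receptor, had 10.2, 10.5 and 10.03 FPKM at PND21 and 20.9, 27.4, 31.3 and 29.2 FPKM at PND15 (-1.31 ± 0.13 log2, adjusted p = 0.00386). Plvap, of fenestral diaphragms, had 51.7, 56.8 and 62.3 FPKM at PND21 and 86.3, 106, 94.6 and 135 FPKM at PND15 (adjusted p = 0.0201), and the WT means were 134 ± 11.7 FPKM at PND21 and 145 ± 2.82 FPKM at PND15 (adjusted p = 0.31). Cdh5, the cadherin of endothelial junctions, and Tie1, an endothelial receptor kinase, fell, at -0.59 ± 0.08 and -0.80 ± 0.14 log2 (adjusted p = 0.00924 and 0.0185). In the mesangium list 5 of 12 fell and Agt, the precursor of angiotensin, rose, with 9.04, 2.76 and 8.7001 FPKM at PND21 and 0.859, 0.8802, 1.04 and 0.785 FPKM at PND15 (adjusted p = 0.0203). Itga8, the integrin chain of mesangial cells, had 8.43, 9.32 and 9.99 FPKM at PND21 and 16.9, 17.1, 16.01 and 18.3 FPKM at PND15 (-0.82 ± 0.08 log2, adjusted p = 0.00341). Aplnr and Itga8 kept their calls with each library left out; Cdh5 was lost without PND21 replicate 2 (0.0515), Tie1 and Plvap also without PND15 replicate 2 and Plvap without any PND21 library (up to 0.078), and Agt without PND15 replicate 2 or PND21 replicate 3 (up to 0.0677). Under TPM, 11 podocyte, 11 endothelial and 6 mesangial genes fell, but falls over all 14387 genes grew as well, to 1329 from 502.

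**Figure D3:**
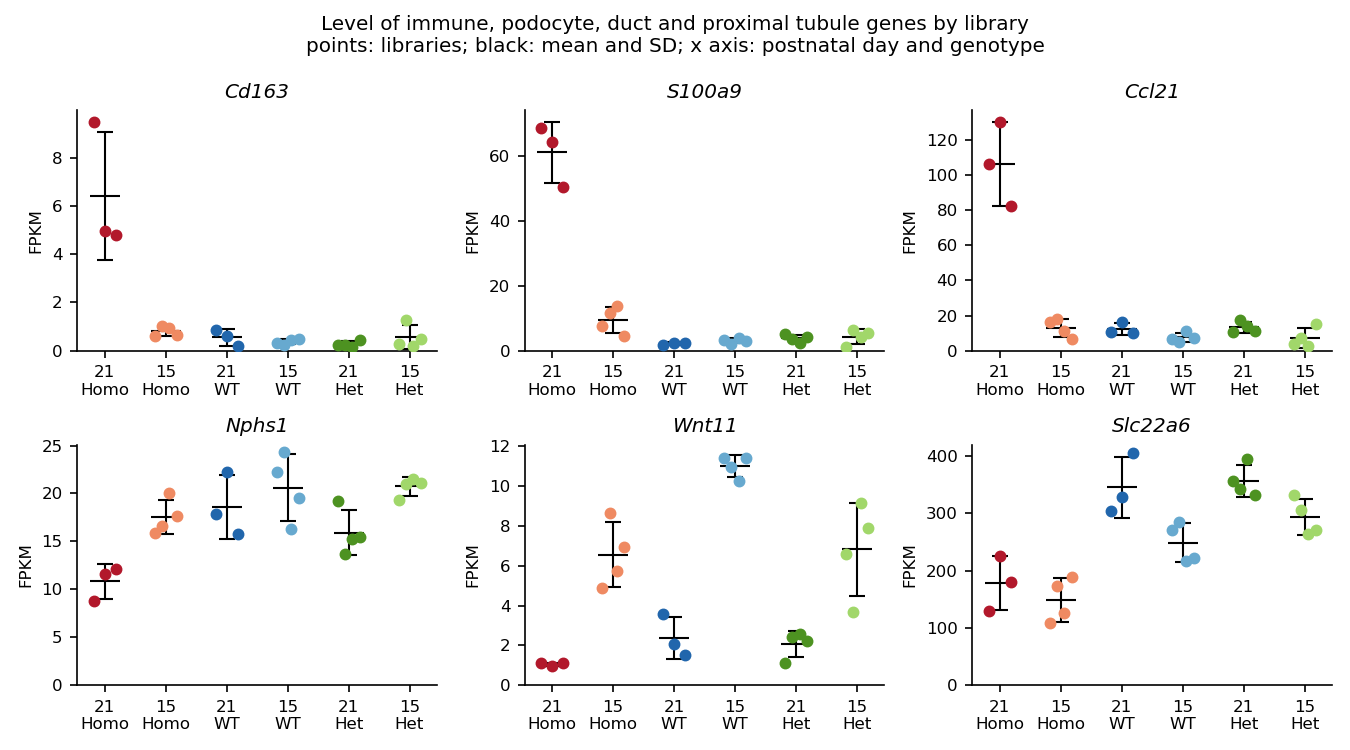
FPKM of the macrophage gene Cd163, the neutrophil gene S100a9, the chemokine Ccl21, the podocyte gene Nphs1, the duct-tip gene Wnt11 and the proximal tubule transporter Slc22a6 by library (points; black, mean and SD), postnatal day and genotype. For Nphs1 the PND21 Homo libraries, at 8.77, 11.5 and 12.1 FPKM, lie under every PND15 Homo library.

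Stromal genes gave 5 falls and no rise among 21 (median -0.21 log2), where WT had 9 falls and 2 rises among 20. Cnn1, a contractile protein of smooth muscle, had 3.95, 3.43 and 3.197 FPKM at PND21 and 10.01, 6.71, 8.11 and 8.45 FPKM at PND15 (-1.03 ± 0.13 log2, adjusted p = 0.00776; called with each library left out). The pericyte genes Notch3 and Rgs5 fell, at -0.66 ± 0.09 and -0.45 ± 0.07 log2 (adjusted p = 0.0107 and 0.0157), and lost the call without PND21 replicate 2 (0.0541 and 0.0708), Rgs5 also without PND15 replicate 2. Acta2, smooth muscle actin, overlapped between the ages, with 163, 115 and 121 FPKM at PND21 and 248, 164, 229.9 and 122 FPKM at PND15 (adjusted p = 0.286). Of 34 matrix genes, 2 rose and 2 fell. The proteoglycan gene Dcn rose by 0.46 ± 0.09 log2 (adjusted p = 0.0247) and the collagen gene Col8a1 by 1.36 ± 0.30 log2 (adjusted p = 0.0408), while Tnc, a matrix protein of growing and healing tissue, fell, at -0.96 ± 0.15 log2 (adjusted p = 0.0157). Tnc was lost without PND21 replicate 2 (0.0689), and Dcn and Col8a1 without PND15 replicates 2 or 3 or any PND21 library (up to 0.1). The fibrillar collagen genes did not move past the test: Col1a1 had 317, 273 and 289 FPKM at PND21 and 367, 279.5, 344 and 258 FPKM at PND15 (adjusted p = 0.773), and Col3a1 600.1, 518 and 573 FPKM at PND21 and 559.9, 385, 540.1 and 341 FPKM at PND15 (adjusted p = 0.315). In WT, 9 of 35 matrix genes fell and 1 rose.

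Some genes of nephron formation fell. Wnt11 and Wnt9b, ligands of the ureteric duct, had 1.09, 0.946 and 1.09 FPKM and 2.18, 1.97 and 1.46 FPKM at PND21, against 4.88, 8.68, 5.73 and 6.96 FPKM and 7.398, 8.86, 6.02 and 15.1 FPKM at PND15. Their differences were -1.86 ± 0.17 log2 (adjusted p = 0.00337) and -1.79 ± 0.27 log2 (adjusted p = 0.015), and both fell in WT. Wnt4, the ligand that turns progenitors into epithelium, fell, at -1.12 ± 0.18 log2 (adjusted p = 0.0157) and was 1.42 ± 0.392 FPKM at PND21 and 6.73 ± 0.688 FPKM at PND15 in WT. The progenitor list had 3 falls and no rise among 19 and the duct-tip list 3 falls among 11; WT had 5 falls and 1 rise in each, among 18 and 11. Among the 10 largest falls stood the neurofilament genes Nefl and Nefm. Nefl had 2.22, 3.696 and 4.73 FPKM at PND21 and 20.9, 25.4, 21.7 and 19.2 FPKM at PND15 (-2.36 ± 0.19 log2, adjusted p = 0.00303). Nefm had 1.74, 2.94 and 2.76 FPKM at PND21 and 13.6, 14.9, 14.3 and 11.4 FPKM at PND15 (-2.08 ± 0.15 log2, adjusted p = 0.00242). Prima1, which anchors acetylcholinesterase in membranes, had 4.52, 4.69 and 5.53 FPKM at PND21 and 16.999, 22.1, 22.3 and 29.2 FPKM at PND15 (-1.98 ± 0.16 log2, adjusted p = 0.00303), and WT had no call for it (adjusted p = 0.476; difference of the changes -1.62 ± 0.37 log2, adjusted p = 0.0701). Nefl, Nefm, Prima1 and Wnt11 were called with each library left out, whereas Wnt9b and Wnt4 were lost without PND15 replicate 2 or PND21 replicates 2 or 3 (up to 0.0663).

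Col26a1, a collagen gene, and Shisa3, a Wnt antagonist, were also among the largest falls, at -2.08 ± 0.33 and -1.71 ± 0.31 log2 (adjusted p = 0.0167 and 0.0225). So was Slc14a1, the urea transporter, with 1.16, 1.44 and 2.33 FPKM at PND21 and 8.97, 10.4, 3.84 and 18.2 FPKM at PND15 (adjusted p = 0.037). These 3 calls were lost without PND15 replicate 2, and those of Shisa3 and Slc14a1 also without PND21 replicates 2 or 3 (adjusted p up to 0.119). Both were lost without PND21 replicate 1 too, and Slc14a1 without PND15 replicate 1. The 34 cell cycle genes gave no call in Homo by limma or voom (3 with an unadjusted p under 0.05; median -0.11 log2) and 20 falls in WT (median -0.36 log2). Mki67, the proliferation marker, held 8.16, 11.95 and 10.99 FPKM at PND21 and 11.97, 11.02, 11.01 and 12.1 FPKM at PND15 in Homo, and 8.84, 10.3 and 8.21 FPKM at PND21 and 12.8, 12.6, 11.3 and 12.9 FPKM at PND15 in WT, and none of the 34 differed in its change between Homo and WT by limma or voom (5 with an unadjusted p under 0.05).

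Proximal tubule genes rose widely in WT, and few passed the test in Homo. Calls were fewer in Homo over all genes too, where 3.59% rose, against 13.2% in WT. Among 34 transport genes 4 rose in Homo and 23 in WT; among 37 metabolic genes none was called in Homo by limma or voom (4 with an unadjusted p under 0.05), and 27 rose and 1 fell in WT; among 34 genes of oxidative phosphorylation none was called in Homo by either tool (0 with an unadjusted p under 0.05) and 24 rose in WT. The medians were 0.13, 0.06 and 0.15 log2 in Homo and 0.44, 0.54 and 0.37 log2 in WT. Under TPM the Homo medians were -0.01, -0.09 and 0.00 log2, so the first 2 changed sign. The difference between the Homo and the WT change was called for none of these genes by limma or voom, and 8, 7 and 3 of them had an unadjusted p under 0.05. The median difference of the changes was -0.19, -0.52 and -0.24 log2. Slc34a1, the phosphate carrier of the brush border, had 341, 881 and 833 FPKM at PND21 and 618, 976, 746 and 1164 FPKM at PND15 in Homo, with replicate 1 of PND21 lowest. In WT it had 1954, 2058 and 2064 FPKM at PND21 and 1668, 1589, 1376 and 1362 FPKM at PND15. Slc22a6, the anion transporter OAT1, had 130.1, 225 and 180.2 FPKM at PND21 and 108, 173, 126 and 188 FPKM at PND15 in Homo (adjusted p = 0.559), and 304, 328 and 405 FPKM at PND21 and 272, 284, 217 and 223 FPKM at PND15 in WT.

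Some tubule genes did rise in Homo. Slc7a9, the light subunit of the cystine carrier, rose by 0.44 ± 0.08 log2 (adjusted p = 0.0188), and Slc13a1, the sodium sulfate carrier, by 0.86 ± 0.16 log2 (adjusted p = 0.022). In the urate and organic ion list 5 of 22 rose in Homo and 18 in WT. Slc51b and Slc51a, the subunits of the steroid and bile acid carrier OST, had 23.3, 21.3 and 28.7 FPKM and 9.095, 6.499 and 8.78 FPKM at PND21, and 6.904, 7.82, 7.13 and 8.89 FPKM and 3.8001, 3.71, 4.15 and 2.99 FPKM at PND15. The groups overlapped for neither (1.54 ± 0.12 and 0.96 ± 0.14 log2, adjusted p = 0.00303 and 0.0123). Slc51a was 37.3 ± 22.5 FPKM at PND21 and 4.62 ± 0.4999 FPKM at PND15 in WT, a difference of the changes of -1.65 ± 0.38 log2 (adjusted p = 0.0701). Abcc4, an efflux pump for organic anions and urate, had 33.2, 32.3 and 32.5 FPKM at PND21 and 22.9, 20.98, 21.1 and 23.2 FPKM at PND15 (0.55 ± 0.06 log2, adjusted p = 0.00613). The urate carriers Slc22a12 and Slc2a9 were not called (adjusted p = 0.281 and 0.157). Slc51b and Abcc4 were called with each library left out, Slc51a was lost without PND21 replicate 3 (0.051), and Slc7a9 and Slc13a1 without PND15 replicate 2 or PND21 replicates 2 or 3 (up to 0.0704), Slc13a1 also without PND15 replicate 3 or PND21 replicate 1.

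Detoxifying enzymes held some of the steepest rises. Cyp4a8, a fatty acid hydroxylase, had 72.5, 97.8 and 82.3 FPKM at PND21 and 14.1, 5.33, 5.402 and 2.78 FPKM at PND15 (3.61 ± 0.41 log2, adjusted p = 0.00655). Akr1c1, an aldo-keto reductase, had 13.04, 13.5 and 11.4 FPKM at PND21 and 1.67, 0.683, 1.32 and 0.609 FPKM at PND15 (2.75 ± 0.19 log2, adjusted p = 0.00242). Ugt2b35, a glucuronosyltransferase, had 7.98, 5.37 and 1.78 FPKM at PND21 and 0.109, 0.0372, 0 and 0 FPKM at PND15 (adjusted p = 0.0143). All rose in WT too, where Cyp4a8 was 19.8 ± 13.2 FPKM at PND21 and 1.04 ± 0.477 FPKM at PND15, and each belongs to a family whose copies share reads. In the glutathione and NRF2 list 6 of 26 rose in Homo and 16 of 26 in WT. Srxn1, which repairs oxidised peroxiredoxins, had 14.004, 12.7 and 10.05 FPKM at PND21 and 5.77, 4.26, 3.62 and 3.67 FPKM at PND15 (1.32 ± 0.16 log2, adjusted p = 0.00707). Gstm1, a glutathione transferase of another such family, had 164, 96.98 and 99.5 FPKM at PND21 and 47.5, 25.3, 30.4 and 25.8 FPKM at PND15 (1.87 ± 0.26 log2, adjusted p = 0.0123), while WT averaged 30.1 ± 9.17 FPKM at PND21 and 27.5 ± 0.805 FPKM at PND15. Gclc, the catalytic chain of glutamate-cysteine ligase, had 179.9, 163 and 171 FPKM at PND21 and 94.3, 165, 80.5 and 249.8 FPKM at PND15 (adjusted p = 0.594), whereas WT had 811, 813 and 1328 FPKM at PND21 and 347, 352, 341 and 289 FPKM at PND15. Cyp4a8, Akr1c1, Srxn1 and Gstm1 were called with each library left out, and Ugt2b35, under 1 FPKM in every PND15 library and so tested through its PND21 levels alone, in 4 such fits, was lost without PND15 replicate 2 (0.0502).

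Purine genes gave 3 rises among 27, Xdh among them, against 11 rises and 1 fall among 27 in WT. Gda, which deaminates guanine to xanthine, had 56.2, 34.1 and 38.9 FPKM at PND21 and 12.7, 10.4, 14.4 and 2.68 FPKM at PND15 (2.15 ± 0.48 log2, adjusted p = 0.0419), and 3.81 ± 1.35 FPKM at PND21 and 1.37 ± 0.3002 FPKM at PND15 in WT, where it also rose. Pnp, which frees hypoxanthine and guanine from their nucleosides, rose by 0.43 ± 0.10 log2 (adjusted p = 0.0491). Both were lost without PND15 replicates 1, 2 or 3 or any PND21 library (up to 0.139). Uox, urate oxidase, was at or below 0.046 FPKM in every Homo library.

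**Figure D4:**
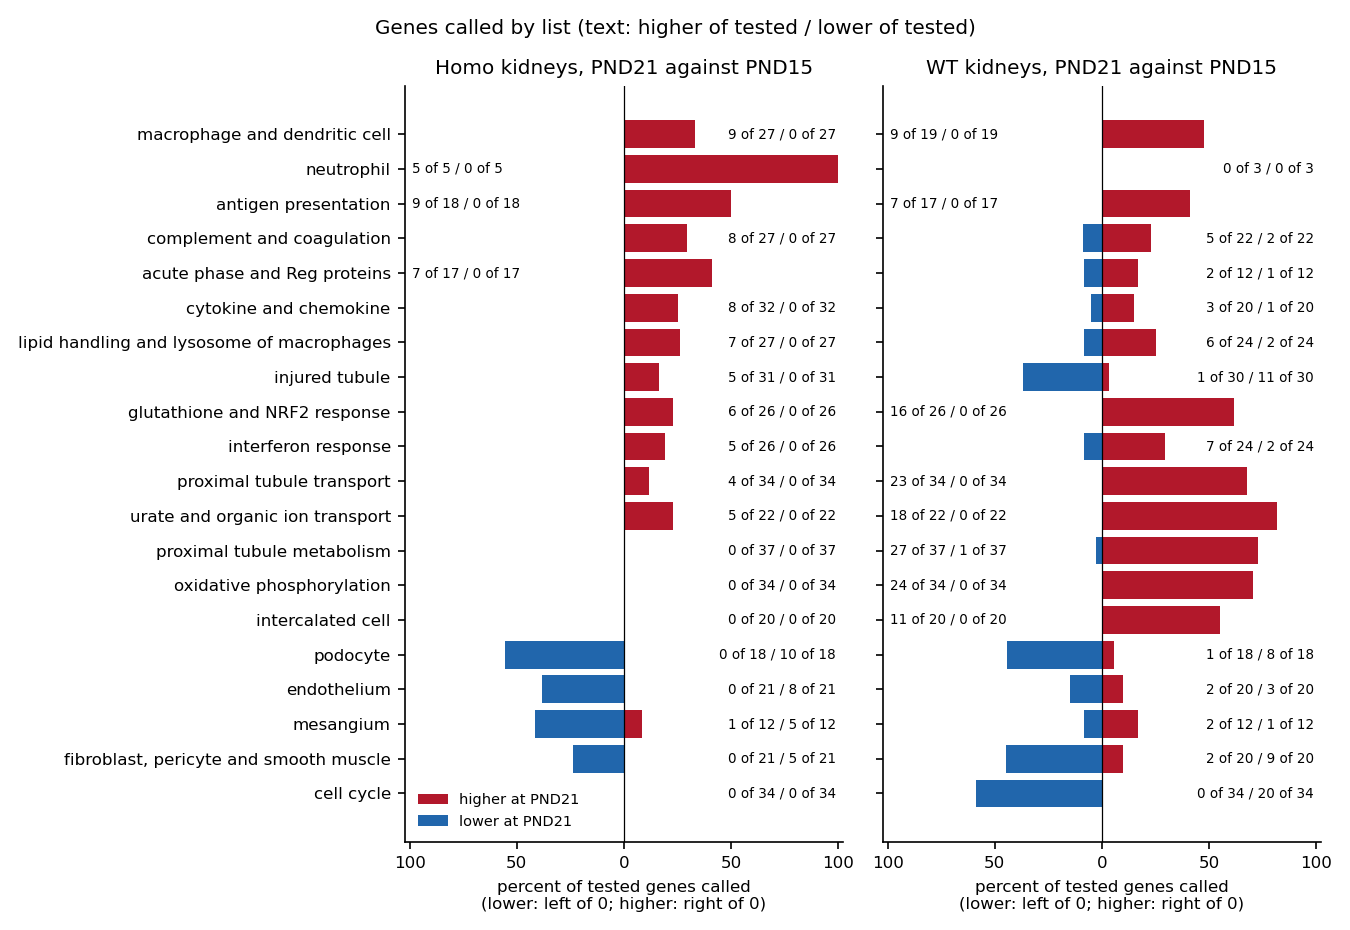
Share of tested genes called lower (blue, left of 0) and higher (red, right of 0) at PND21 than at PND15, for 20 gene lists, in Homo (left) and WT kidneys (right), with counts as text. Immune lists are red in Homo and podocyte, endothelial and mesangial lists mostly blue, and proximal tubule and oxidative phosphorylation lists carry most of their calls in WT. In WT, 9 of 19 macrophage and 7 of 17 antigen presentation genes rose and 8 of 18 podocyte genes fell too, while 0 of 3 neutrophil genes rose. Over all genes 3.59% rose and 3.49% fell in Homo, and 13.2% rose and 9.21% fell in WT.

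In the distal nephron few genes passed the test. The thick ascending limb list had 1 rise among 18 (the prostaglandin receptor gene Ptger3) and the distal convoluted and connecting tubule list 1 among 17, Sgk1, the kinase that aldosterone induces, with 72.4, 153 and 174 FPKM at PND21 and 36.4, 39.8, 41.99 and 41.5 FPKM at PND15 (1.62 ± 0.27 log2, adjusted p = 0.0195). WT had 6 and 8 rises there, and over all genes 13.2% rose in WT and 3.59% in Homo. Umod, uromodulin, held 441, 1009 and 869 FPKM at PND21 and 650.1, 988, 837 and 872 FPKM at PND15 (adjusted p = 0.742), with PND21 replicate 1 the lowest. None of 20 intercalated cell genes was called in Homo by limma or voom (3 with an unadjusted p under 0.05; median -0.33 log2), and 11 rose in WT (median 0.41 log2). Slc4a1, the anion exchanger of acid-secreting cells, had 3.27, 12.2 and 10.6 FPKM at PND21 and 7.402, 11.7, 9.04 and 21.95 FPKM at PND15 in Homo, against 70.9, 50.5 and 57.5 FPKM at PND21 and 33.8, 30.2, 28.9 and 28.4 FPKM at PND15 in WT. For Slc26a4, the exchanger pendrin, the change in Homo was lower than in WT by the test of the difference (-0.87 ± 0.15 log2, adjusted p = 0.0205). In the principal cell list the transcription factor genes Gata2 and Gata3 fell, at -0.88 ± 0.13 and -0.34 ± 0.08 log2 (adjusted p = 0.0143 and 0.0484). Sgk1 was lost without PND15 replicate 2 or PND21 replicates 2 or 3 (0.078), Ptger3 likewise (0.0868), Gata2 without PND21 replicates 2 or 3 (0.0558) and Gata3 without any 1 library (0.117); the Slc26a4 difference was lost without PND21 Homo replicates 1 or 2, PND15 Homo replicate 2, PND21 WT replicates 2 or 3 or PND15 WT replicates 3 or 4 (up to 0.0653).

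Fgf23, the phosphate-wasting hormone normally made by bone, was read in each Homo kidney. It had 1.41, 3.403 and 1.35 FPKM at PND21 and 0.275, 0.375, 0.189 and 0.154 FPKM at PND15, highest in PND21 replicate 2, and it was listed at 0 in all 7 WT libraries of these ages. Its difference was 1.23 ± 0.24 log2 (adjusted p = 0.0279), and it was called in 1 of the 4 fits without 1 library that could test it (lost without PND15 replicates 1, 2 or 3, adjusted p up to 0.0673). Every PND15 library was under 1 FPKM, so Fgf23 could be tested only through its PND21 levels, which favours a call. Kl, the coreceptor klotho, overlapped between the ages, with 37.5, 86.8 and 83.1 FPKM at PND21 and 62.5, 72.7, 61.7 and 81.6 FPKM at PND15 (adjusted p = 0.871).

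Whether the change with age in Homo differed from that in WT was tested for 15037 genes, and 87 were called (0.579%), 49 with the higher and 38 with the lower change in Homo. The higher set leads with Reg3g, whose change was larger in Homo by 3.11 ± 0.38 log2 (adjusted p = 0.0052), and S100a9, by 2.98 ± 0.39 log2 (adjusted p = 0.00829). Fgg, Cd163 and S100a8 followed, by 2.48 ± 0.40, 1.84 ± 0.30 and 2.31 ± 0.37 log2 (each adjusted p = 0.018). Reg3g, Fgg and Cd163 did not reach 1 FPKM in 3 WT libraries and entered this test through their Homo levels, which favours a call. For these genes the difference mostly restates the rise in Homo, which was 2.97, 2.32 and 1.996 log2. Rprm, a cell-cycle arrest gene that p53 induces, had 29.7, 22.4 and 23.8 FPKM at PND21 and 7.96, 6.399, 6.91 and 2.68 FPKM at PND15 in Homo, and 1.497, 1.35 and 1.49 FPKM at PND21 and 2.11, 2.83, 1.92 and 2.34 FPKM at PND15 in WT (2.403 ± 0.33 log2, adjusted p = 0.0113). It thus rose in Homo (1.98 ± 0.30 log2, adjusted p = 0.0146) and fell in WT (-0.42 ± 0.13 log2, adjusted p = 0.0482). Pla2g7, which inactivates platelet-activating factor, likewise rose in Homo and fell in WT (1.89 ± 0.30 log2, adjusted p = 0.0168).

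Other genes of the set fell in WT and were not called in Homo. Dcdc2, a microtubule-binding protein of cilia, had 40.1, 38.7 and 39.2 FPKM at PND21 and 50.7, 33.1, 37.1 and 24.6 FPKM at PND15 in Homo, and 6.24, 5.39 and 5.15 FPKM at PND21 and 16.7, 17.1, 18.1 and 19.6 FPKM at PND15 in WT (1.67 ± 0.24 log2, adjusted p = 0.0113). Angptl4, an inhibitor of lipoprotein lipase, had 21.2, 30.3 and 32.6 FPKM at PND21 and 40.9, 27.4, 29.6 and 24.7 FPKM at PND15 in Homo, and 3.61, 4.53 and 1.899 FPKM at PND21 and 16.2, 19.2, 16.1 and 19.99 FPKM at PND15 in WT (2.04 ± 0.31 log2, adjusted p = 0.0159). Entpd2, an ectonucleotidase, did likewise, at 0.80 ± 0.12 log2 (adjusted p = 0.0152). Vcan, a matrix proteoglycan, had 17.4, 10.96 and 12.1 FPKM at PND21 and 15.8, 10.6, 13.2 and 9.83 FPKM at PND15 in Homo, and 2.66, 2.15 and 1.83 FPKM at PND21 and 6.39, 7.15, 6.81 and 9.57 FPKM at PND15 in WT (1.505 ± 0.26 log2, adjusted p = 0.0254). Among the lower changes, Bcat2, which starts the breakdown of branched-chain amino acids, had 28.6, 30.1 and 26.4 FPKM at PND21 and 24.8, 26.8, 25.8 and 28.5 FPKM at PND15 in Homo, and 49.3, 54.04 and 55.7 FPKM at PND21 and 28.4, 28.8, 28.9 and 28.6 FPKM at PND15 in WT (-0.77 ± 0.09 log2, adjusted p = 0.00348). Odc1, the rate-limiting enzyme of polyamine synthesis, had 44.1, 43.3 and 45.1 FPKM at PND21 and 46.2, 41.6, 37.2 and 39.2 FPKM at PND15 in Homo, and 74.9, 78.7 and 129.7 FPKM at PND21 and 40.4, 42.7, 42.95 and 34.9 FPKM at PND15 in WT (-1.06 ± 0.22 log2, adjusted p = 0.0468). Igfbp3, which binds insulin-like growth factors, fell in Homo, to 43.3 ± 9.83 FPKM at PND21 against 87.7 ± 18.99 FPKM at PND15, and rose in WT, to 96.1 ± 7.58 FPKM at PND21 against 64.6 ± 4.93 FPKM at PND15 (-1.57 ± 0.23 log2, adjusted p = 0.0146). Stc2, a secreted glycoprotein, showed 0.3902, 0.3304 and 0.3696 FPKM at PND21 and 0.889, 0.729, 0.459 and 1.1998 FPKM at PND15 in Homo, and 4.21, 4.17 and 4.87 FPKM at PND21 and 1.096, 1.03, 1.84 and 1.91 FPKM at PND15 in WT (-1.55 ± 0.24 log2, adjusted p = 0.0159).

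By voom on reads the differences from WT of Reg3g, Fgg, Cd163, S100a8, Rprm and Pla2g7 were not called (adjusted p = 0.158, 0.327, 0.157, 0.0919, 0.054 and 0.0819), and that of S100a9 was. By limma, leaving out 1 of the 14 libraries gave 20 (without PND21 WT replicate 3) to 319 calls (without PND15 Homo replicate 1). Reg3g, S100a9, Rprm, Dcdc2, Angptl4, Entpd2 and Bcat2 were called in all 14 such fits. Fgg was lost without PND21 Homo replicate 2 or any PND21 WT library (up to 0.0562), Cd163, Igfbp3 and Stc2 without PND21 WT replicate 3 (up to 0.0538), and Pla2g7 without PND21 Homo replicate 1 or PND21 WT replicate 3 (up to 0.052). S100a8 was lost without PND21 Homo replicates 1 or 2 or PND21 WT replicates 2 or 3 (up to 0.0561), and Vcan without PND21 Homo replicate 1, PND15 Homo replicate 2, PND21 WT replicates 2 or 3 or PND15 WT replicate 3 (up to 0.0851). Odc1 was called only without PND15 Homo replicate 1 or PND21 WT replicates 1 or 3 (up to 0.113 in the others). The rises of Rprm and Pla2g7 and the fall of Igfbp3 in Homo alone were each lost without PND21 Homo replicates 2 or 3, Pla2g7 and Igfbp3 also without PND21 Homo replicate 1 or PND15 Homo replicate 2, and Igfbp3 without PND15 Homo replicates 1 or 3 (up to 0.0868).

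**Figure D5:**
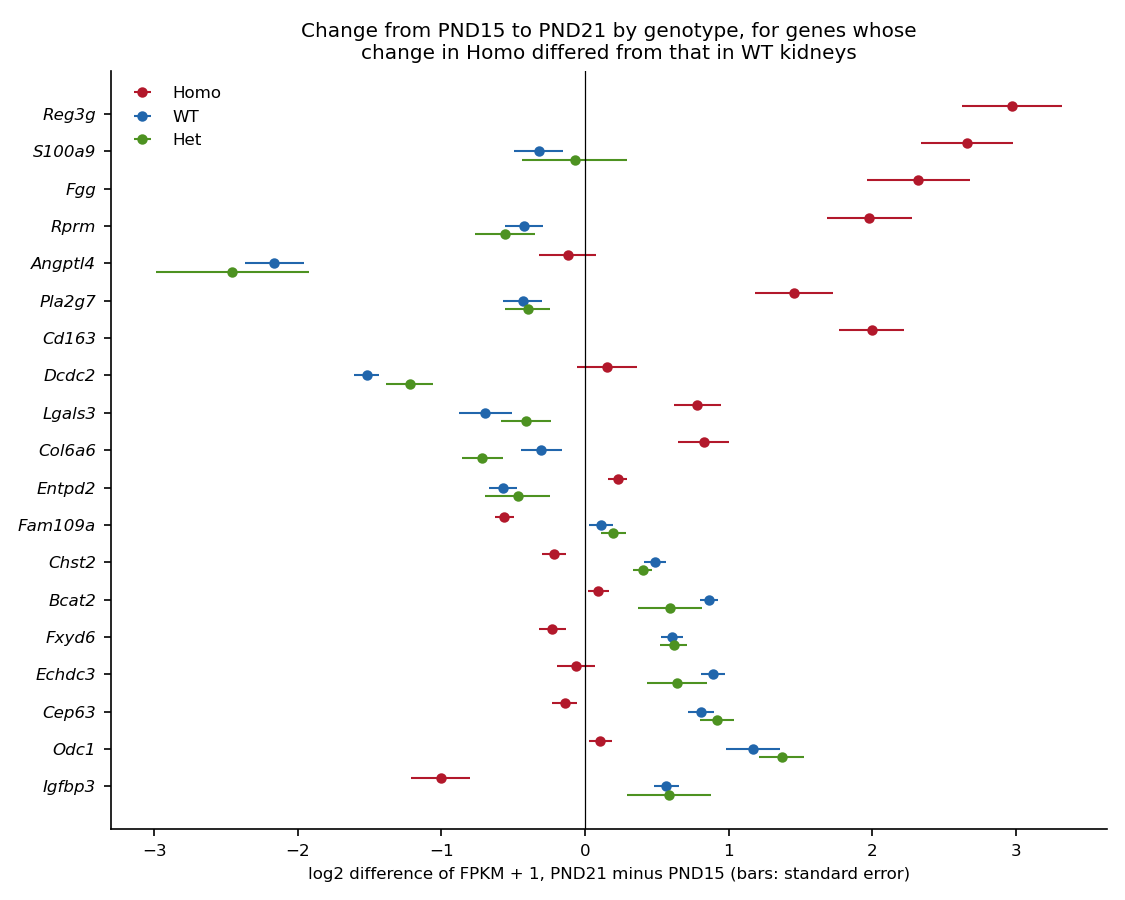
Log2 difference of FPKM + 1 between PND21 and PND15 (x axis; bars, SE) in Homo, WT and Het kidneys for 19 genes whose change in Homo differed from that in WT. Reg3g, Fgg and Cd163 carry no WT or Het point because they did not reach 1 FPKM in 3 libraries there, and Rprm lies right of 0 in Homo and left of 0 in WT and in Het, where it was not called.

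Against Het, 108 of 15116 genes differed in their change with age (0.714%), 55 higher and 53 lower in Homo. The Homo changes of Reg3g, C4b, Fgg, Rprm and Cd163 exceeded those of Het by 3.07 ± 0.37, 3.07 ± 0.44, 2.84 ± 0.42, 2.54 ± 0.37 and 2.25 ± 0.33 log2 (adjusted p = 0.00631 for Reg3g and 0.0125 for each of the others). Reg3g, Fgg and Cd163 did not reach 1 FPKM in 3 Het libraries and entered this test through their Homo levels, which favours a call. C4b had 1.03, 0.518, 0.452 and 1.24 FPKM at PND21 and 1.62, 2.61, 1.78 and 3.65 FPKM at PND15 in Het. Gpnmb, not called between ages in Homo, differed in its change from Het by 2.499 ± 0.49 log2 (adjusted p = 0.0412), with 2.13, 2.57, 2.18 and 1.52 FPKM at PND21 and 3.13, 6.697, 6.55 and 6.87 FPKM at PND15 in Het. Slc39a14, a zinc and iron importer, rose in Homo to 14.6, 11.5 and 10.2 FPKM at PND21, against 5.63, 4.74, 5.13 and 3.95 FPKM at PND15 (1.16 ± 0.14 log2, adjusted p = 0.00705), and exceeded the Het change by 1.11 ± 0.17 log2 (adjusted p = 0.0159). Col6a6, a collagen VI chain, and Itgav, an integrin chain, exceeded it by 1.54 ± 0.22 and 0.97 ± 0.16 log2 (adjusted p = 0.0125 and 0.0175). Cep63, a centrosome gene, Odc1 and the histidine methyltransferase gene Mettl9 had lower changes in Homo, at -1.06, -1.26 and -0.61 log2 (adjusted p = 0.0125, 0.0153 and 0.0159). The Homo libraries are shared by the tests against Het and WT, so these are given side by side only. With 1 of the 15 libraries left out, 19 (without PND21 Het replicate 2) to 219 genes (without PND15 Homo replicate 1) were called. Of the genes named against Het, Gpnmb was called only without PND15 Homo replicates 1, 3 or 4 or PND15 Het replicate 1 (up to 0.0956 in the others), Itgav was lost without PND21 Het replicate 2 or PND21 Homo replicate 1 (0.0514), and the rest held in all 15. By voom on reads the differences from Het of Reg3g, C4b, Fgg, Cd163 and Gpnmb were not called (adjusted p = 0.156, 0.0655, 0.16, 0.067 and 0.145).

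Many of the genes called in Homo were also called in WT over the same days. The counts of genes called in both genotypes stand beside 13.2% of genes that rose and 9.21% that fell in WT. Of the 517 genes that rose in Homo, 247 also rose in WT (47.8% of the 517 and 13.3% of the 1860 that rose in WT), and 4 fell there. Of the 502 that fell in Homo, 308 also fell in WT (61.4% of the 502 and 23.7% of the 1300 that fell in WT), and 1 rose. The Homo and WT contrasts have no library in common. WT had 3160 calls among 14115 genes (22.4%) and Het 1700 among 14256 (11.9%; 8.7% higher and 3.23% lower), beside 7.08% in Homo; these shares depend on the number of libraries and on their spread.

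Markers of tissues that a dissected cortex can carry were read as well. Haemoglobin and other blood genes summed to 1275 to 3134 FPKM in PND21 Homo and 1126 to 2730.3 FPKM in PND15 Homo, and none of 8 tested was called by limma or voom (1 with an unadjusted p under 0.05). WT held 3619 to 9132 FPKM at PND21 and 2183 to 3456 FPKM at PND15. Of 10 fat genes tested 3 rose in Homo, Lpl, the lipid droplet gene Cidec and the complement protease gene Cfd. All 14 fat genes in the table summed to 138 to 956 FPKM in PND21 Homo and 363 to 687 FPKM in PND15 Homo, ranges that overlap, and none was at 0 in all 7 libraries. Adipoq, the fat cell hormone adiponectin, had 4.804, 7.51 and 17.9 FPKM at PND21 and 2.82, 3.02, 2.25 and 6.299 FPKM at PND15 (adjusted p = 0.145), with PND21 replicate 3 the highest, and Ucp1 of brown fat stood at 0, 0 and 0.534 FPKM at PND21 and 0.0578, 0, 0 and 17.1 FPKM at PND15. Alb, the defining transcript of liver, stayed at or below 0.282 FPKM in all 7. The fetal plasma protein gene Afp fell to 0, 0 and 0.0964 FPKM at PND21, against 1.63, 1.89, 2.804 and 4.195 FPKM at PND15 (-1.76 ± 0.24 log2, adjusted p = 0.0107; 0.0516 without PND21 replicate 2), tested through its PND15 levels alone, and it fell in WT. Cfd was lost without PND21 replicates 2 or 3 and Cidec without these or PND15 replicates 1, 2 or 3 (up to 0.0868). The part of fat in the rises of Lpl, Cidec and Cfd was not tested.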

How the data were processed

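The table holds FPKM per gene and library, made by the authors. Per the submitters' processing notes the tools were featureCounts 1.5.0-p3, StringTie 1.3.3b, HISAT2 2.0.5 and fastp, with no roles stated. The sources used here name neither the genome build nor the strand setting, so antisense and overlapping genes cannot be parted. FPKM times gene length gave whole reads within 0.01 read in every library, and these reads set the depth and served for voom. The main test was limma 3.58.1 (R 4.3.3; trend and robust variance, statmod 1.5.0) on log2(FPKM + 1), which understates changes of low genes, with Benjamini-Hochberg adjustment over all tested genes and a threshold of 0.05. Each comparison was fitted on its own groups. P-values measure the spread between animals, which may share litters. Alternatives were a pseudocount of 0.1, no filter or a mean of at least 5 FPKM, TPM, median-ratio scaling, array weights, voom, models of 6 and 12 groups and each library left out. The script was tested on simulated data.

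The 44 gene lists (990 genes in the table, 840 tested, 30 of 1050 entries unmatched) and the genes studied were chosen with earlier results of these data known. The naming rule took Xdh, Reg3g, Fgg, Gpnmb and Egf, the 10 largest called changes per direction at 5 FPKM or more without overlap, up to 3 called members of each list by p, and the 8 smallest p per direction in each test of a difference of changes. Other genes were named after their values were seen, and results of a few genes that the rule took are not reported here. Promoter sequences are from RefSeq (GRCr8) and share no coordinates with the table.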

Additional observations from a re-analysis of the deposited data

Results flagged for a closer look

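Within groups of 4, 5 of 128 genes that the naming rule took had a PND15 Homo library far from the other 3, as about 1 group in 20 has by chance. Pigr was lowest in replicate 4 at 2.06 FPKM, against 2.70 FPKM in the nearest library. Sod2, the mitochondrial superoxide dismutase, was lowest in the same replicate at 101 FPKM, against 118 FPKM. Replicate 1 was highest for Slc13a1 at 106 FPKM, against 77.8 FPKM, and for Gata3 at 19.7 FPKM, against 17.3 FPKM. The kallikrein gene Klk1c2 was read in replicate 2 at 0.0826 FPKM and listed at 0 in the nearest library, and its copies share reads.

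The change with age in Homo differed from that in WT for 29 of the 128 genes by limma (adjusted p 0.00348 to 0.0491), and 27 of the 29 are given here. The values in parentheses are the Homo change minus the WT change on the log2(FPKM + 1) scale. Higher in Homo were Reg3g (3.11), S100a9 (2.98), Fgg (2.48), Rprm (2.40), Ccl21 (2.32), S100a8 (2.31), Angptl4 (2.04), Pla2g7 (1.89), Cd163 (1.84), Gstm1 (1.78), Dcdc2 (1.67), Cxcr2 (1.63), Lgals3 (1.48), Col6a6 (1.13), Il6 (1.03) and Entpd2 (0.80). Lower in Homo were Igfbp3 (-1.57), U6 (-1.54), Odc1 (-1.06), Echdc3 (-0.95), Cep63 (-0.95), Fxyd6 (-0.83), Pqlc1 (-0.78), Bcat2 (-0.77), Chst2 (-0.70), Fam109a (-0.67) and Nudt18 (-0.67). With 1 of the 14 libraries left out, 10 of the 27 were called each time, while Il6 was called in 1 of 11 fits that tested it, Gstm1 in 2, Odc1 and Col6a6 in 3, Cxcr2, Pqlc1 and Nudt18 in 4, Ccl21 in 5 and Lgals3 in 7 of 14, and the other 8 in 10 to 13 (adjusted p up to 0.12). By voom on reads the differences of Reg3g, Fgg, Rprm, Ccl21, S100a8, Pla2g7 and Cd163 from WT were not called (adjusted p 0.054 to 0.327). Nor were those of Gstm1, Cxcr2, Col6a6, Il6, U6 and Fam109a (0.0535 to 0.323).

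The change with age in Homo differed from that in Het for 29 of the 128 genes by limma (adjusted p 0.00631 to 0.0459). The values in parentheses are the Homo change minus the Het change on the log2(FPKM + 1) scale. Higher in Homo were C4b (3.07), Reg3g (3.07), Fgg (2.84), S100a9 (2.73), Reg3b (2.65), Rprm (2.54), Gpnmb (2.499), Lilrb4 (2.35), Cd163 (2.25), Pla2g7 (1.85), Clec7a (1.84), Cxcr2 (1.59), Col6a6 (1.54), Lbp (1.41), Dcdc2 (1.38), Il6 (1.12), Slc39a14 (1.11) and Itgav (0.97). Lower in Homo were Klk1c2 (-2.52), Odc1 (-1.26), Cep63 (-1.06), Rbm38 (-0.90), Pqlc1 (-0.86), Gata2 (-0.84), Fxyd6 (-0.84), Fam109a (-0.76), Nudt18 (-0.69), Chst2 (-0.62) and Mettl9 (-0.61). With 1 of the 15 libraries left out, 15 of the 29 were called each time, while Dcdc2 was called in 2 fits, Gata2 and Reg3b in 3, Gpnmb in 4, S100a9, Clec7a and Cxcr2 in 5, Lbp in 6 and Lilrb4 in 8 of 15, Il6 in 9 of 12 that tested it, and the other 4 in 11 to 13 (adjusted p up to 0.099). By voom on reads the differences of C4b, Reg3g, Fgg, S100a9, Reg3b, Gpnmb and Lilrb4 from Het were not called (adjusted p 0.0655 to 0.359). Nor were those of Cd163, Pla2g7, Clec7a, Cxcr2, Lbp, Klk1c2 and Gata2 (0.0525 to 0.319).

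Both comparisons use the same Homo libraries. For Il6 against WT (1.03) and Reg3b against Het (2.65) the value equals the Homo age difference, so it restates the rise in Homo. Reg3g, Fgg and Cd163 entered both comparisons through their Homo levels, which favours a call. U6 stands for a gene with many near-identical copies, and Klk1c2, C4b, Ccl21 and Gstm1 have close copies too, so their reads cannot be placed with certainty. Among the genes higher in Homo against WT were the neutrophil genes S100a8, S100a9 and Cxcr2. The summed level of the neutrophil list was 111 to 141 FPKM in PND21 Homo and 6.27 to 8.04 FPKM in PND21 WT. S100a9 and S100a8 led this sum, so it is no separate measure of neutrophils. The part of neutrophils in the other differences was not tested.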

How the results depend on the processing

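No paired analysis was possible because the labels give no replicate numbers or litters that tie PND21 to PND15 animals. The 1019 genes called between PND21 and PND15 in Homo became 630 with no filter on low values, 1651 with TPM, 2120 with array weights, 1975 in a model of 6 groups and 2087 in a model of all 12 groups, and 171 to 866 with 1 library left out. The 87 genes whose change differed from WT became 54 with a mean of at least 5 FPKM, 47 with TPM, 347 with array weights, 41 with voom on reads, 171 in the model of 6 groups and 453 in that of 12, and 20 to 319 with 1 library left out; 39.0% were higher with voom, against 56.3%. The 108 against Het became 46 with a pseudocount of 0.1, 68 with no filter, 65 with a mean of at least 5 FPKM, 55 with TPM (70.9% higher, against 50.9%), 762 with array weights, 39 with voom, 375 in the model of 6 groups and 543 in that of 12, and 19 to 219 with 1 library left out. The 3160 called between ages in WT became 5316 with TPM (16.3% higher, against 58.9%) and 2037 to 2799 with 1 library left out; these WT alternatives were chosen after seeing the data. The cause was not tested, except that unfiltered tables test more genes. The log2 difference of Xdh was 1.20 to 1.61 and that of the mitochondrial share 0.770 to 1.40 points with 1 library left out. No gene that the naming rule took for a comparison changed direction in it under any setting. With 1 library left out, the Homo age difference of 9 other named genes, none of them called, turned: Slc34a1, Kl, Umod and Vcan without PND21 replicate 1 (to 0.01, 0.29, 0.18 and -0.07 log2), Angptl4 without that library or PND15 replicate 1 (up to 0.06), Col1a1 without PND15 replicate 1 (0.01), and Dcdc2, Echdc3 and Slc26a4 without PND15 replicate 4 (-0.01, 0.01 and 0.01). TPM divides by summed FPKM, which was 575053 to 588909 at PND21 and 501663 to 541866 at PND15 in Homo. Of the list medians, those of proximal tubule transport and metabolism, matrix, matrix proteases, purine genes, distal convoluted tubule and blood were below 0 with TPM and above 0 with FPKM. With 3 and 4 libraries, a gene missing the threshold is not shown to be stable.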

Other observations

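Transcripts of p53 targets, growth arrest and immediate early response stood outside the accounts above. Of 27 tested arrest and stress genes 2 rose and 1 fell between PND15 and PND21 in Homo, against 4 rises and 3 falls among 24 in WT. Over all genes tested, 3.59% rose and 3.49% fell in Homo, and 13.2% rose and 9.21% fell in WT. Plk2, a polo-like kinase, fell to 10.6, 9.04 and 11.7 FPKM at PND21, against 21.6, 21.3, 20.7 and 18.7 FPKM at PND15 (-0.92 ± 0.09 log2, limma adjusted p = 0.00462), and kept its call with each library left out. By voom on reads its Homo change differed from the WT change by -0.04 log2 (adjusted p = 0.93). The immediate early list had 1 rise among 21, Zfp36, which destabilises cytokine messages; it was called in 2 of the 7 fits without 1 library (lost without PND15 replicates 2, 3 or 4 or PND21 replicates 2 or 3, adjusted p up to 0.114). In WT the immediate early list had 1 rise and 3 falls among 18.

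Glycolysis and hypoxia genes gave 2 rises and 1 fall among 25, against 9 rises and 1 fall among 25 in WT. Ndrg1, a stress and hypoxia response gene, had 566, 615 and 571 FPKM at PND21 and 356, 332, 311 and 360.1 FPKM at PND15 (0.78 ± 0.08 log2, limma adjusted p = 0.0054), called with each library left out. Of 16 superoxide genes 3 rose, Prdx1, Sod2 and Prdx5, and in WT 8 of 16 rose. By voom on reads the Homo changes of Prdx1, Sod2 and Prdx5 differed from the WT changes by 0.04, 0.04 and -0.14 log2, none called (adjusted p = 0.903, 0.922 and 0.622). The inflammasome list had 3 rises among 23, Pycard, Pmaip1 and Nlrc4, and the matrix protease list 3 falls among 18, Mmp15, Mmp23 and Adam12. WT had 2 rises and 1 fall among 20 inflammasome genes, and 1 rise and 8 falls among 17 matrix protease genes. Of the genes named from these lists, Prdx1 and Sod2 were lost without PND21 replicate 2 (adjusted p up to 0.0689) and Mmp15 without PND15 replicate 2 or PND21 replicate 3 (up to 0.0659). Pycard, Pmaip1, Mmp23 and Adam12 were each called in 2 of the 7 fits without 1 library, Prdx5 in 1 (without PND15 replicate 4) and Nlrc4 in 0, with adjusted p up to 0.122 over these 6. No member of the skeletal muscle (4 tested), adrenal (2 tested), mast cell (2 tested) or osmotic response (11 tested) lists was called by limma or voom, and 1, 1, 1 and 3 of them, in that order, had an unadjusted p under 0.05.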
